A study of Mus musculus with 6 samples.

Results

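The 32 genes described here encode proteins of mitosis: the kinase CDK1 and its cyclins, the other mitotic kinases, the spindle checkpoint, the anaphase-promoting complex (APC/C) and separase, the centromere and kinetochore, the mitotic kinesins, proteins of spindle microtubules, topoisomerase II alpha and Ki-67. They were taken by gene symbol from a table of 53819 genes, and each of the 32 has a row. All 32 were also among the 15232 genes with enough counts to be tested.

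The 6 libraries were made from leukaemia cells that were sorted out of the spleen of mice transplanted with primary cells carrying BCR-ABL and NUP98-HOXA9, a model of blast-crisis chronic myeloid leukaemia. The genotype label is SLC6A6 KO for 3 libraries and SLC6A6 WT for 3, while the series title speaks of a knock-down. Both fusion genes are shared by both groups. The sorting marker, the allele, and the age and strain of the mice were not given in the sources used here. Nor was it stated that a group's libraries represent different animals, and the p-values below therefore speak of the spread among these libraries, which may be technical. Slc6a6 encodes a transporter of taurine, and the comparison is between leukaemia labelled KO and WT for it. Its level was 125, 132 and 133 CPM (read counts scaled to library size) in KO1 to KO3 and 151, 145 and 145 CPM in WT1 to WT3. That difference missed the edgeR quasi-likelihood test (adjusted p = 0.196), so the level does not check the genotype, and KO and WT are the labels of the libraries below.

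Library totals ran from 42829294 to 49537098 counts. The pan-leukocyte gene Ptprc (50.1 to 148 CPM) and the myeloid transcription factor gene Spi1 (38.9 to 97.4 CPM) were present in every library, whereas Itgam, a marker of mature myeloid cells, lay at 0.196 to 1.76 CPM. Kit lay at 44.6 to 75.9 CPM in KO and 9.90 to 25.6 CPM in WT. Cd34 had 0.878 to 2.42 CPM in KO against 3.14 to 16.9 CPM in WT. Mpo overlapped, at 0 to 21.8 against 8.27 to 53.1 CPM. Of the 8 leukaemia and blood genes listed, 1 was higher in KO in edgeR's test and 0 lower, where 1.64% and 1.92% of all tested genes were. The log2 fold changes of these 8 genes were positive in 4 and negative in 4, where 50.9% of all tested genes had a positive one. Transcripts of 4 Y-linked genes summed to 10274 to 11236 counts in the KO libraries and to 0, 0 and 1 counts in the WT libraries. Xist lay at 4.41, 0.305 and 0.776 CPM in KO and at 160 to 197 CPM in WT, so the label and the sex-linked transcripts cannot be told apart in any comparison here.

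Cells enter mitosis when CDK1 bound to B-type cyclins becomes active, after which chromosomes condense, a bipolar spindle forms and kinetochores attach each chromatid to microtubules. The spindle checkpoint holds back the APC/C until all chromosomes are attached. The APC/C then marks cyclin B and securin for destruction, separase cuts cohesin, and the cell divides. The RNA of most of these genes is highest in the G2 phase and in mitosis. In bulk RNA their level therefore tracks the share of dividing cells as well as the RNA of each cell. More cells in division and more RNA per dividing cell cannot be told apart in these libraries.

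This timing is ascribed to the MuvB complexes, which bind the cell cycle genes homology region (CHR), and to NF-Y, which binds CCAAT boxes. Promoter windows of 250 bases before the RefSeq start (build GRCm38.p6) were at hand for 28 of the 32 genes, and Ccna2, Aurkb, Kif20a and Tpx2 had none. Searched on both strands as TTTGAA or TTTAAA for the CHR and as CCAAT, the windows held a CHR in 15 of 28 genes (53.6%), against 25.5% of the 27025 promoters in the table. A CHR within 60 bases of the start was found in 10 of 28 (35.7%, against 5.83%), and 2 or more CCAAT boxes in 14 of 28 (against 10.5%). No CHR match overlapped a CCAAT match. The 160 bases before the start are shown for 7 genes, on the strand of the gene and with the motif letters in capitals. The first 3 are the genes past the test, Mki67 has the highest fitted fold change, Espl1 and Ccnb1 show a CHR close to the start with CCAAT upstream, and Cdc20 carries both motifs yet differed by less than its error between the groups.
Cenpf (chr1:189688087-189688246, minus strand): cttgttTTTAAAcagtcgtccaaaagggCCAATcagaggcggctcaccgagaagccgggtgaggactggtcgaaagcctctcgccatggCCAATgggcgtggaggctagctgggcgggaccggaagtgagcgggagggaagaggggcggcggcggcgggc
Kif11 (chr19:37376222-37376381, plus strand): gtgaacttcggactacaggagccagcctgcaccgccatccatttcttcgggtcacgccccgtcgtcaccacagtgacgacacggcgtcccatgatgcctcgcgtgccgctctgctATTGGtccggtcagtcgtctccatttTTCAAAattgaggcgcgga
Top2a (chr11:99024190-99024349, minus strand): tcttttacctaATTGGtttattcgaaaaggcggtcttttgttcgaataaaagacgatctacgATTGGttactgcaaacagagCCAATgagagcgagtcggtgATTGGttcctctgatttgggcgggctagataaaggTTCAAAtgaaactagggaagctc
Mki67 (chr7:135716380-135716539, minus strand): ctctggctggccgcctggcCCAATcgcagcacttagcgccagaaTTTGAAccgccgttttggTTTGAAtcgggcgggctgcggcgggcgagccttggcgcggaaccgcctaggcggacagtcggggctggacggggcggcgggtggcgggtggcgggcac
Espl1 (chr15:102296133-102296292, plus strand): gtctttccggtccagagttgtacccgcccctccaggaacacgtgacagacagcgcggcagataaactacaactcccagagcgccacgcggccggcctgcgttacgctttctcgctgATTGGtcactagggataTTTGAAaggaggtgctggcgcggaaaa
Ccnb1 (chr13:100786487-100786646, minus strand): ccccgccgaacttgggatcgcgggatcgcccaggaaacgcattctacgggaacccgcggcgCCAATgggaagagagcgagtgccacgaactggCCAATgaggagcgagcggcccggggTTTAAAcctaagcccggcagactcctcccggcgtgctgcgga
Cdc20 (chr4:118437344-118437503, minus strand): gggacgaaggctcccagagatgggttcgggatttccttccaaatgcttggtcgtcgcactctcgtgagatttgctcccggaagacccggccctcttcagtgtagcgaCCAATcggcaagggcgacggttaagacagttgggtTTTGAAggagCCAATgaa
In Kif11 the CHR starts 19 bases and the CCAAT box 45 bases before the start of the gene. In Top2a they lie at 23 and, nearest the start, 58 bases, and in Espl1 at 27 and 44 bases. Ccnb1 has its CHR at 42 bases with CCAAT boxes at 67 and 99 bases. In Cenpf the CHR match is farther out, at 154 bases, with CCAAT boxes at 71 and 132 bases. The motifs did not sort the genes by their difference between the groups. The median log2 fold change, KO over WT, was 0.21 in the 10 genes with a CHR near the start and 0.33 in the 18 without, with ranges from -0.01 to 0.48 and from -0.03 to 0.97. Mad2l1, Nusap1 and Pttg1, which had neither motif in the 250 bases, had log2 fold changes of 0.07, 0.47 and -0.03. A match of letters is a description of the window and not evidence of binding.

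Of the 32 genes, 3 rose in the libraries labelled KO, 0 fell and 29 missed the threshold of 0.05 on the adjusted p of edgeR's quasi-likelihood test. Over all 15232 tested genes 1.64% rose and 1.92% fell. The 3 genes were Cenpf, Kif11 and Top2a. The direction was shared more widely than the calls: 28 of the 32 had a positive log2 fold change, against 50.9% of all tested genes, and the median was 0.29 with quartiles of 0.12 and 0.46, against a median of 0.01 over all tested genes. At an unadjusted p below 0.05, 16 of 32 were higher and 0 lower, where 11.6% and 10.4% of all genes were. In 13 of 32 every KO library lay above every WT library, and in 0 every KO library lay below, where the shares over all genes were 13.6% and 14.4%. The genes were listed with earlier results of these libraries known, and they vary together across libraries, so these counts are a description of the list.

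**Figure D1:**
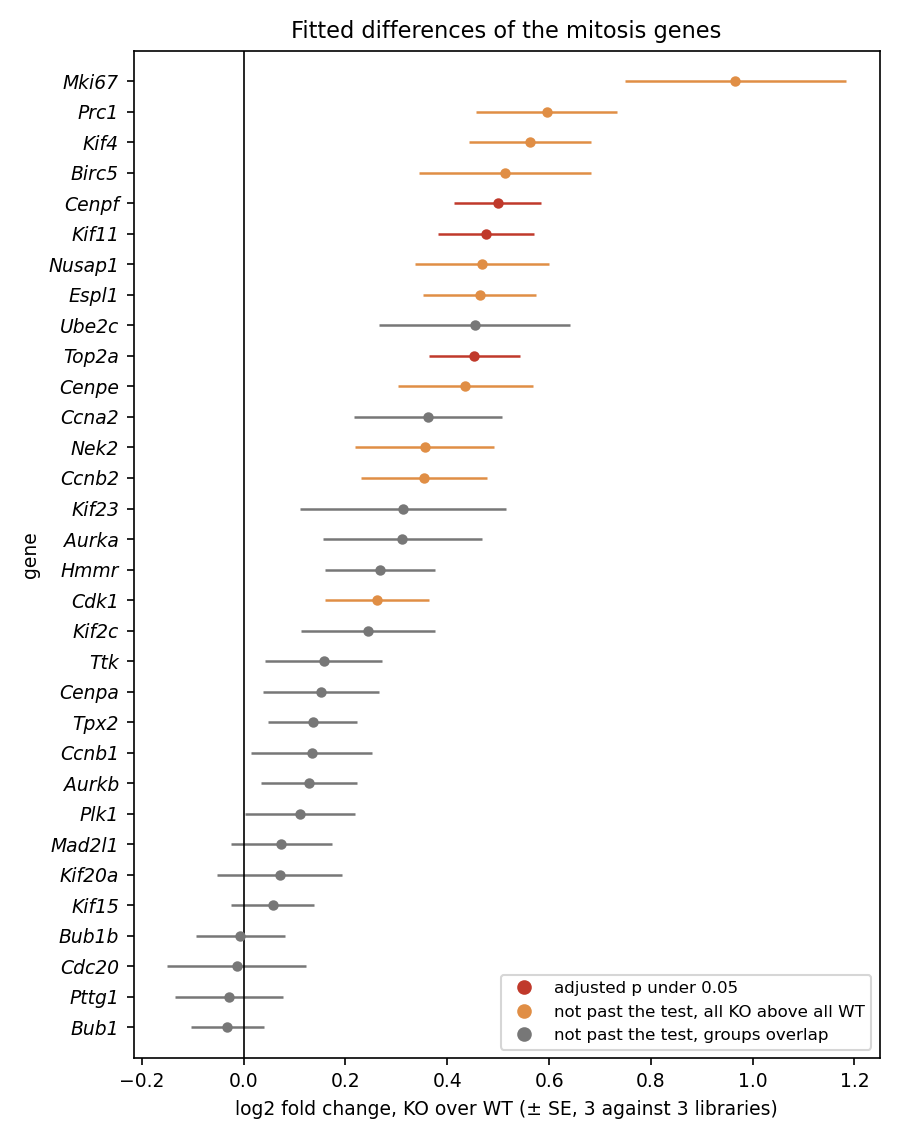
Fitted log2 fold change of each of the 32 mitosis genes, KO over WT (x axis), with its standard error as a bar, 3 libraries against 3. The 3 red points are Cenpf, Kif11 and Top2a, the genes past the test, and Mki67 lies farthest to the right at 0.97 with the widest bar.

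Cenpf encodes a large protein of the kinetochore corona. It was measured at 139, 149 and 155 CPM in KO1 to KO3 and at 112, 98.7 and 103 CPM in WT1 to WT3. All KO values lay above all WT values, with a gap wider than the spread within either group. The fitted change was 1.41-fold (log2 fold change 0.50 ± 0.08, SE, adjusted p = 0.0318). Its neighbour at the kinetochore, the kinesin gene Cenpe, had 122, 129 and 169 CPM in KO and 107, 99.6 and 104 CPM in WT. The groups did not overlap there either, but KO3 stood well above the other KO libraries and the difference missed the test (0.44 ± 0.13, adjusted p = 0.120). Cenpa, the histone H3 variant that marks centromeres, overlapped between the groups, at 237 to 276 CPM in KO and 194 to 248 CPM in WT (adjusted p = 0.491).

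Among the 6 kinesins, motor proteins that move along microtubules, 1 rose and 5 did not pass the test, where 1.64% of all tested genes rose. Their median log2 fold change was 0.28. Kif11 encodes Eg5, the motor that pushes the spindle poles apart. Its values were 250, 236 and 285 CPM in KO and 183, 196 and 175 CPM in WT, again without overlap, a 1.39-fold rise (0.48 ± 0.09, adjusted p = 0.0452). Kif4, a chromokinesin, lay at 80.9, 88.3 and 104 CPM in KO and 61.4, 66.4 and 57.2 CPM in WT. The groups did not overlap, and the fitted 1.48-fold difference just missed the test (0.56 ± 0.12, adjusted p = 0.0538). It is the only gene of the 32 on the X chromosome, and whether the sex-linked difference between the groups bears on it was not tested. Kif15, which can stand in for Eg5, was nearly level, with log2 fold change 0.06 ± 0.08 and 105 to 112 CPM in KO against 98.6 to 112 CPM in WT. Kif2c, a microtubule depolymerase of the centromere, had 0.24 ± 0.13. Kif20a and Kif23, both motors of the central spindle and cytokinesis, had 0.07 ± 0.12 and 0.31 ± 0.20. For Kif23, KO2 at 59.5 CPM lay below WT2 and WT3 at 72.7 and 70.2 CPM, while KO1 and KO3 reached 88.3 and 96.2 CPM.

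Top2a encodes topoisomerase II alpha, which untangles sister chromatids. It was the most abundant of the 32 in CPM, at 606, 627 and 723 CPM in KO and 468, 505 and 456 CPM in WT. The lowest KO library stood above the highest WT library, and the gene rose 1.37-fold (0.45 ± 0.09, adjusted p = 0.0459). Mki67, the gene of the proliferation marker Ki-67, had the highest fitted fold change, 1.95-fold, from 499, 414 and 662 CPM in KO and 210, 331 and 265 CPM in WT. Here the libraries of each group differed widely: the coefficient of variation was 24.0% in KO and 22.7% in WT, the highest of the 32 genes in both groups. The groups did not overlap, and the difference did not pass the test (0.97 ± 0.22, adjusted p = 0.0608).

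The 4 spindle microtubule genes all had positive log2 fold changes, against 50.9% of all tested genes, with a median of 0.37. Of the 4, 0 passed the test. Prc1, which bundles the microtubules of the central spindle, had 171, 143 and 207 CPM in KO and 107, 122 and 115 CPM in WT, with no overlap (0.60 ± 0.14, adjusted p = 0.0658). Nusap1, a microtubule-binding protein of the chromosome-near spindle, had 150, 139 and 192 CPM against 109, 123 and 116 CPM, with KO3 again the highest (0.47 ± 0.13, adjusted p = 0.0992). Hmmr and Tpx2, which act together with Aurora A at the spindle, overlapped between the groups, at 0.27 ± 0.11 and 0.14 ± 0.09.

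Of the 4 genes of the APC/C and separase 0 passed the test, and 2 had log2 fold changes just below 0. Espl1, the gene of separase, had 139, 129 and 166 CPM in KO and 104, 99.9 and 110 CPM in WT, without overlap (0.46 ± 0.11, adjusted p = 0.0691). Ube2c, the E2 enzyme of the APC/C, had a log2 fold change as large, 0.45, with a wider error of 0.19: KO2 at 361 CPM lay below WT2 at 379 CPM, while KO3 reached 559 CPM. Cdc20, the activator of the APC/C in mitosis, had 264, 268 and 332 CPM in KO and 246, 328 and 297 CPM in WT. The ranges overlapped almost fully (-0.01 ± 0.14, adjusted p = 0.968). Pttg1, the gene of securin, had 56.8, 48.4 and 55.6 CPM against 53.1, 59.1 and 52.0 CPM (-0.03 ± 0.11, adjusted p = 0.909), and no group stood apart.

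The 4 spindle checkpoint genes overlapped between KO and WT, 0 passed the test, and their log2 fold changes had a median of 0.03. Bub1 had 111, 113 and 117 CPM in KO and 112, 118 and 119 CPM in WT, the narrowest spread of the 32 genes in either group (coefficients of variation of 2.79% and 3.14%). Its log2 fold change was -0.03 ± 0.07 (adjusted p = 0.845). Bub1b, which encodes BubR1, had 206, 235 and 234 CPM against 230, 210 and 238 CPM (-0.01 ± 0.09, adjusted p = 0.976). Mad2l1, the inhibitor of CDC20, had 0.07 ± 0.10, and Ttk, the kinase MPS1 at the top of the checkpoint, 0.16 ± 0.12. Whether the checkpoint genes differ from the other mitosis genes was not tested.

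Among CDK1 and its cyclins, 0 of 4 passed the test. All 4 log2 fold changes were positive, against 50.9% of all tested genes, with a median of 0.31. Ccnb2, a B-type cyclin, had 320, 278 and 353 CPM in KO and 214, 261 and 269 CPM in WT, with the lowest KO library just above the highest WT library (0.35 ± 0.12, adjusted p = 0.160). Cdk1 did not overlap either, at 256 to 293 CPM against 198 to 243 CPM (0.26 ± 0.10). Ccna2, the cyclin of S and G2 phase, and Ccnb1, the main mitotic cyclin, overlapped, at 0.36 ± 0.15 and 0.13 ± 0.12. Of the mitotic kinases, Nek2, a centrosome kinase, did not overlap (0.36 ± 0.14), whereas Aurka and Plk1, which drive centrosome maturation and mitotic entry, did (0.31 ± 0.16 and 0.11 ± 0.11). In the chromosomal passenger complex, which corrects faulty attachments, Birc5, the gene of survivin, had 316, 251 and 370 CPM in KO and 183, 251 and 223 CPM in WT. KO2 and WT2 were level to within 0.1 CPM there, at 250.8 and 250.7, and the difference missed the test (0.51 ± 0.17, adjusted p = 0.140). Aurkb, the kinase of the complex, had 0.13 ± 0.09.

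**Figure D2:**
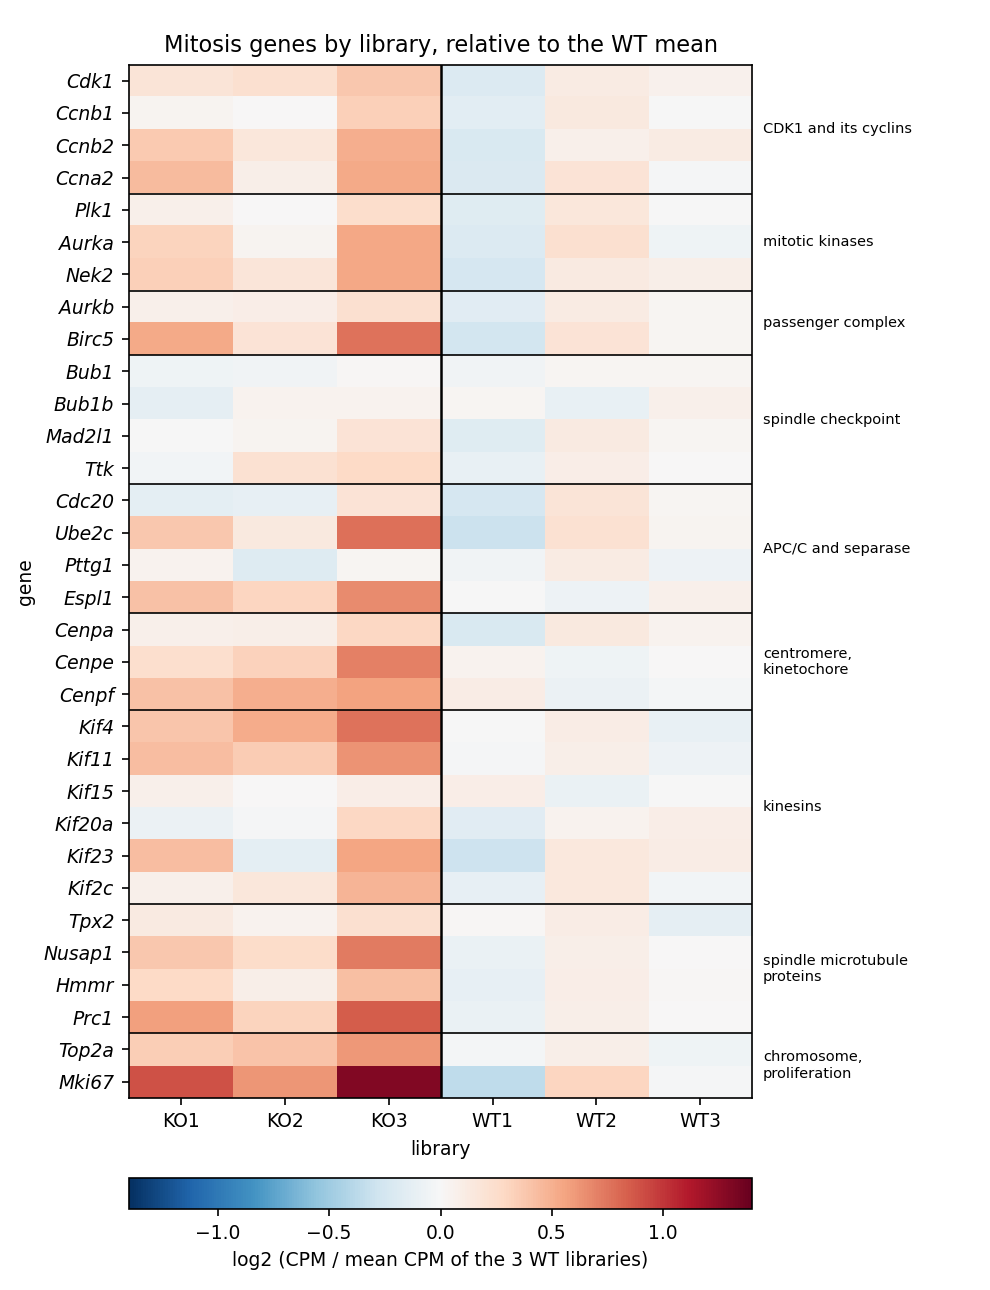
The 32 genes (rows, by role) in the 6 libraries (columns), coloured by log2 of the CPM over the mean CPM of the 3 WT libraries. The KO3 column is the darkest red and the WT1 column the palest or bluest, and Bub1 and Bub1b stay near white in all 6 libraries.

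Per kilobase of annotated transcript the order of levels differed from that in CPM. On that scale Cdc20 and Ccnb2 were highest in WT, both at 162 CPM per kb, followed by Cenpa and Ube2c at 154 and 150 CPM per kb, and Top2a stood at 91.2. The lowest were Cenpf at 9.38, Kif4 at 12.4 and Cenpe at 13.1 CPM per kb. In this order Cdc20 and Ccnb2, and likewise Cenpa and Ube2c, were closer to each other than the spread of either gene over the WT libraries.

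The libraries of a group were not alike. KO3 held the highest value of the 6 libraries for 29 of the 32 genes, and WT1 the lowest for 21. Within the KO group KO3 was highest for 30 genes, and KO2 and KO1 lowest for 18 and 14. Within the WT group WT2 was highest for 24 genes and WT1 lowest for 22. The mean log2 CPM of the 32 genes was 7.50, 7.42 and 7.72 in the KO libraries, in the order of their numbers, and 7.14, 7.36 and 7.27 in the WT libraries. The groups did not overlap, but KO2 lay nearer to WT2 than to KO3. The summed level was 6406 to 8081 CPM in KO and 5177 to 6162 CPM in WT.

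Erythroid markers followed nearly the same order of libraries. Their mean log2 CPM over 20 markers was 9.36 in KO3, 9.15 in KO1, 8.11 in WT2, 7.56 in KO2, 7.36 in WT3 and 6.15 in WT1, and the mitosis genes had the same order except that KO2 and WT2 changed places. The summed level of the 20 markers ran from 8789 to 29957 CPM in KO and from 2958 to 12266 CPM in WT. None of the 20 passed edgeR's test over all genes. DESeq2 called 2 of them higher and limma-voom 0, where they called 1076 and 204 of all 15232 tested genes higher. At an unadjusted p below 0.05 in edgeR, 12 of the 20 markers were higher and 0 lower, where 11.6% and 10.4% of all tested genes were. The groups overlapped in all 20 markers, where they did in 10963 of all 15232 tested genes. A positive log2 fold change was found in 19 of the 20, against 50.9% of all tested genes. The globin gene Hbb-bs was present in every library, from 680 to 9284 CPM. With the mean level of these markers as a covariate, 0 of the 32 mitosis genes passed the test and their median log2 fold change was 0.07. The number with a positive log2 fold change went from 28 to 21, and 29 of the 32 had a lower value than in the comparison of groups alone. Cenpf kept its size in that fit (0.57, adjusted p = 0.0610), and Kif11, Top2a, Kif4 and Mki67 had 0.36, 0.37, 0.49 and 0.51, at adjusted p-values of 0.161, 0.159, 0.182 and 0.124. Prc1 had 0.34, Birc5 0.14 and Ube2c 0.06, while Kif23 went from 0.31 to -0.15, the greatest shift of the 32. The groups differ in the covariate itself, so this fit does not separate the label from erythroid RNA.

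**Figure D3:**
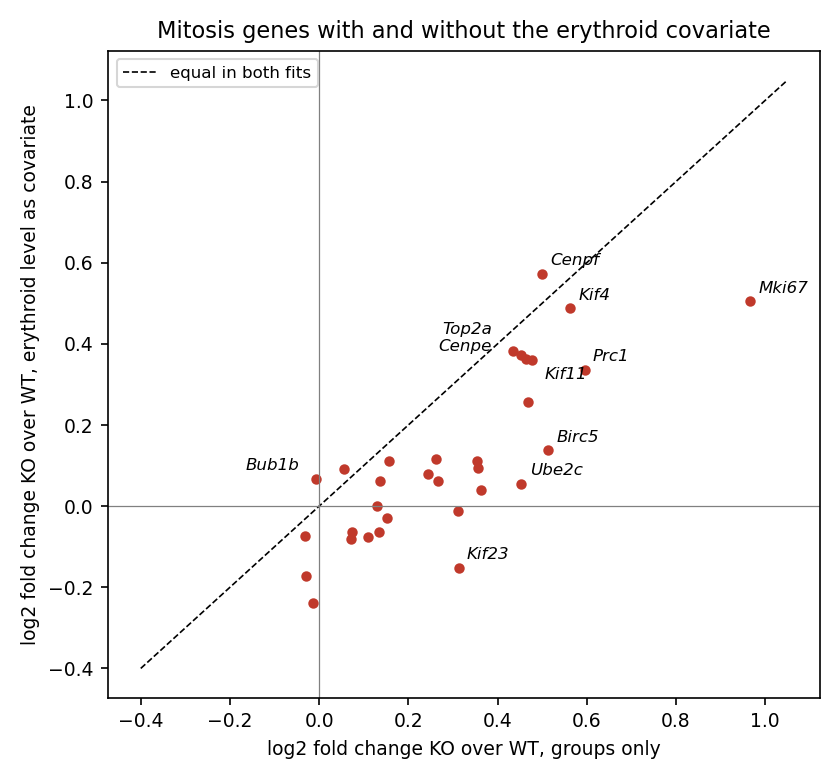
Log2 fold change of each of the 32 genes, KO over WT, in the fit on groups alone (x axis) and with the erythroid level as a covariate (y axis). Most points lie under the dashed line of equality, 29 of 32, and Cenpf is the highest point on the y axis at 0.57.

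Some markers of other blood cells also rose in KO, and their part in the levels of the mitosis genes was not tested. T and NK cell markers summed to 27.1 to 63.1 CPM in KO and 15 to 22.3 CPM in WT. Of 16 tested, 7 rose, where 1.64% of all tested genes did, and 2 had a negative log2 fold change. B and plasma cell markers summed to 65.7 to 169 CPM against 6.62 to 44.1 CPM, and 3 of 9 tested rose. Macrophage markers summed to 113 to 184 CPM against 35.0 to 54.1 CPM. Of 9 tested, 3 rose and 2 had a negative log2 fold change. Neutrophil markers summed to 16.5 to 226 CPM against 106 to 745 CPM, with 0 of 8 past the test in edgeR. DESeq2 called 3 of the 8 lower and limma-voom 0, where they called 925 and 247 of all 15232 tested genes lower. At an unadjusted p below 0.05 in edgeR, 0 of the 8 were higher and 3 lower, where 11.6% and 10.4% of all tested genes were. Of the 8, 3 had a positive log2 fold change, against 50.9% of all tested genes. Cd3e, a part of the T cell receptor complex, had no count in WT2 and WT3 and lay at 1.00 to 2.88 CPM in KO.

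The other genes of the mitotic machinery, together with the MuvB and FOXM1 regulators, were taken as a list of their own. Of 144 other mitosis genes, grouped by role, 6 rose (1.64% of all tested genes did), 0 fell (1.92% did) and 138 did not pass the test. Their log2 fold changes were positive in 118, against 50.9% of all tested genes, with a median of 0.24 against 0.01. The 6 were Tfdp2, Numa1, Ncapd3, Racgap1, Rbl1 and Nuf2. Of these, Tfdp2 and Rbl1 were listed among the 13 MuvB and FOXM1 regulators and are not parts of the mitotic machinery itself. Tfdp2, a dimerization partner of E2F factors, had 166, 95.4 and 145 CPM in KO and 39.0, 45.2 and 43.6 CPM in WT, a 3.18-fold rise (1.67 ± 0.20, adjusted p = 0.0154) in which KO2 was again the lowest KO library. With the erythroid covariate Tfdp2 had a log2 fold change of 1.27 and an adjusted p of 0.0383, while the other 5 genes missed edgeR's test, at adjusted p-values of 0.0732 for Numa1, 0.0811 for Ncapd3, 0.101 for Racgap1, 0.115 for Rbl1 and 0.126 for Nuf2. Tfdp2 also missed it without KO3 (0.0557) and without WT3 (0.0850). Of the 6 fits without 1 library, Numa1, Ncapd3, Racgap1 and Rbl1 each passed in 1 and Nuf2 in 0. Numa1, which anchors microtubules at the spindle poles, rose 1.49-fold from 165 to 245 CPM, and Ncapd3, a subunit of condensin II, 1.48-fold from 108 to 160 CPM. Racgap1, a partner of Kif23 in the centralspindlin complex, rose 1.34-fold, Rbl1, which encodes the pocket protein p107, 1.41-fold, and Nuf2, part of the NDC80 complex of the kinetochore, 1.39-fold.

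The counts by role stand beside 1.64% of all tested genes that rose and 50.9% with a positive log2 fold change (median 0.01). With 1 or 2 calls at most in a role, they describe the list and were not tested by role. All 8 condensin genes had positive log2 fold changes (median 0.41, 1 rose). So did 6 of 7 cytokinesis genes (median 0.47, 1 rose) and 26 of 29 spindle and centrosome genes (median 0.23, 1 rose). Among 35 other centromere and kinetochore genes 29 were positive (median 0.21, 1 rose), and among 13 genes of the MuvB and FOXM1 regulators 10 were (median 0.30, 2 rose). The 15 other APC/C genes were closer to 0, with a median of 0.09, 10 positive and 0 past the test. The remaining kinesins had 6 of 7 positive with a median of 0.29, cohesin 10 of 11 with 0.24, the other checkpoint and passenger genes 4 of 6 with 0.19, and the kinases and phosphatases of mitotic entry 9 of 13 with 0.11, in each case with 0 past the test.

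DNA replication comes before mitosis in the cell cycle. Of 47 genes of DNA replication 1 rose, where 1.64% of all tested genes did. It was E2f1, the gene of an E2F transcription factor, which went from 48.7 ± 4.23 CPM in WT to 84.3 ± 15.2 in KO (SD, n = 3, adjusted p = 0.0425 in edgeR's test). E2f1 missed the threshold in limma-voom (adjusted p = 0.0516), with the erythroid covariate (0.125) and without KO1, KO3, WT1, WT2 or WT3 (0.0907 to 0.156). Of the 47 genes 0 fell, where 1.92% of all tested genes did. A positive log2 fold change was found in 45, against 50.9% of all tested genes, and the median was 0.33 against 0.01. The mean log2 CPM of the mitosis genes less that of the replication genes was 0.01, 0.23 and 0.13 in KO1 to KO3 and 0.32, 0.15 and 0.15 in WT1 to WT3, and the groups overlapped in this difference.

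**Figure D4:**
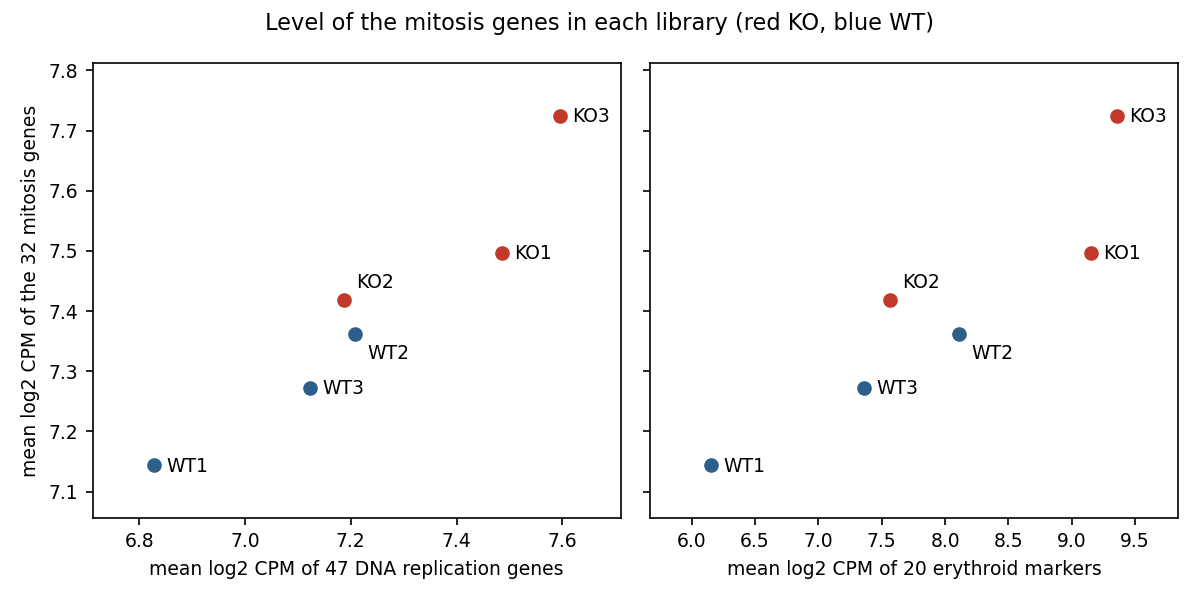
Mean log2 CPM of the 32 mitosis genes in each library (y axis) against that of 47 DNA replication genes (left) and 20 erythroid markers (right), 1 point per library, KO red and WT blue. KO3 lies highest and WT1 lowest on all 3 measures. KO2 sits beside WT2 on the replication axis (7.19 and 7.21) and below it on the erythroid axis (7.56 and 8.11).

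Most of the genes with the smallest p-values had long transcripts. Cenpf has an annotated transcript of 11130 nt, Mki67 10061, Cenpe 7910, Espl1 6658, Top2a 5221, Kif4 4983 and Kif11 4819 nt, while Cdc20 and Pttg1 have 1793 and 1674 nt. Prc1, Birc5 and Nusap1 are exceptions, with 3026, 3334 and 3526 nt and log2 fold changes of 0.60, 0.51 and 0.47. Ube2c, with 2191 nt, had 0.45. The tested genes with a length were cut by it into 5 bins of nearly equal gene number. In the longest, from 4691 nt upward, the 9 mitosis genes had a median log2 fold change of 0.46. The 8 in the bin from 1432 to 2302 nt had 0.14. The medians of all tested genes, from the shortest bin to the longest, were -0.07, -0.03, 0.00, 0.04 and 0.10. Spearman's rho between length and log2 fold change was 0.36 over the 32 genes and 0.13 over 14828 genes, given as a description across genes that share libraries. Mad2l1 and Kif15 went the other way, with 7557 and 4858 nt and log2 fold changes of 0.07 and 0.06. The part of length in these differences was not tested. GC content showed rho of -0.05 over the 32 genes.

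**Figure D5:**
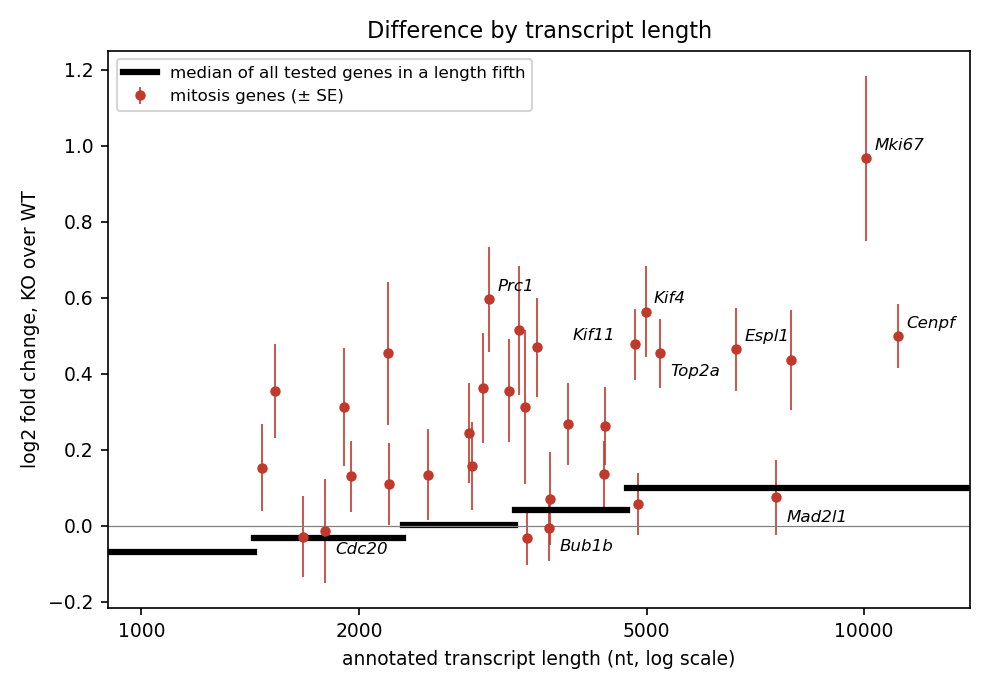
Log2 fold change, KO over WT, with its standard error against annotated transcript length in nt on a log axis for the 32 genes, with black bars for the median of all tested genes in each of 5 bins of length. The long transcripts of Cenpf, Mki67, Espl1, Top2a, Kif4 and Kif11 all lie above 0.4, and the black bars run from -0.07 to 0.10.

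The calls among the 32 genes did not hold in every fit without 1 library. Without KO1, KO3, WT2 or WT3 none of the 32 passed edgeR's test, with smallest adjusted p-values of 0.0820, 0.102, 0.0752 and 0.136. Without WT1 only Cenpf passed, at 0.0460, and without KO2 Cenpf, Kif11 and Prc1 did. Cenpf lay between 0.46 and 0.54 on the log2 scale in these 6 fits, Kif11 between 0.39 and 0.53, Top2a between 0.36 and 0.50, and Mki67 between 0.76 and 1.14. The median log2 fold change of the 32 genes was 0.17 without KO3, 0.18 without WT1 and 0.38 without KO2. DESeq2's Wald test called 10 of the 32: Birc5, Cenpe, Cenpf, Espl1, Kif11, Kif4, Mki67, Nusap1, Prc1 and Top2a. It also called 1076 genes higher over the whole table, where edgeR called 250.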

How the data were processed

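The deposited table holds raw read counts per gene for all 6 libraries. The tools named are STAR 2.7.9a, fastp 0.23.1, featureCounts and Subread 2.0.1, per the submitters' processing notes. Their parameters, the build and the annotation were not given in the sources used here. Per the labels' protocols the cDNA was pre-amplified with a SMARTer kit, which does not mark strand and adds no molecular identifiers.

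Genes were filtered with edgeR's filterByExpr (minimum count 10, minimum total 15), scaled by TMM and compared with the quasi-likelihood F test (edgeR 4.0.16, R 4.3.3, robust, no covariate), with Benjamini-Hochberg adjustment over all genes tested. The standard error is the log2 fold change over the square root of F. CPM uses TMM-scaled totals, and list means use log2 CPM with a prior count of 2. Alternatives used DESeq2 1.42.0 and limma 3.58.1. The fits were also run on simulated negative binomial counts with the fitted dispersions, drawn gene by gene. That run has no variation shared between genes, its outcome is not given here, and no result above rests on it. The lowest chi-square per degree of freedom between replicates was 32.8, so no pair agreed within sampling noise.

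Transcript lengths are those of the longest protein-coding transcript in GENCODE M21, or of the longest transcript where a gene had no protein-coding one. Of the tested genes, 97.3% had a length. Values are given by library for genes past the test, for the next 8 by p and for the 4 with the lowest log2 fold change. Of the other lists, the genes past the test are named, at most 6 a list. The members and lists were chosen with earlier results of these data known. Marker lists are given as sums over each library, with their counts of calls and defining markers.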

Additional observations from a re-analysis of the deposited data

How the results depend on the processing

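The 3 calls among the 32 genes were 3 with RLE size factors, with library totals alone and with limma-voom, and 4 with either other low-count filter, where Kif4 was added. They were 10 with DESeq2, and 0 with the erythroid covariate or the replicate block. Leaving out 1 library gave 0 to 3. No gene of the 32 was called lower under any alternative. The median log2 fold change moved to 0.074 with the covariate, and lay between 0.17 (without KO3) and 0.38 (without KO2) when 1 library was left out. For the other mitosis genes, the 6 calls became 30 with DESeq2, 1 with the covariate and 0 with the block, with 0 to 11 when 1 library was left out, and the median was 0.10 with the covariate. Of the replication genes, 13 were higher with DESeq2 and 0 with limma-voom, the covariate or the block, with 0 to 6 without 1 library, and the median was 0.072 with the covariate. Over all genes, 1076 were higher and 925 lower with DESeq2, 136 and 91 with the covariate and 8 and 20 with the block. Without 1 library they numbered 13 to 371 and 29 to 247. The cause of these changes was not tested.

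Bub1b changed sign with the covariate (0.068) and lay between -0.059 and 0.052 without 1 library. Pttg1 lay between -0.079 and 0.030 and Cdc20 between -0.14 and 0.081. None of these genes passed the test in any of these fits.

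Whether the replicate numbers of the titles pair the libraries could not be decided from the counts. Deviations from the group means correlated at 0.06, -0.14 and -0.07 between libraries with the same number. Between libraries with different numbers they correlated at -0.13 to 0.19. KO1 correlated best with WT1, and no library of number 2 or 3 did so with its own number. All these correlations are weak, and the deviations within a group of 3 are tied to each other.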
